A study of Mus musculus with 12 samples.

Results

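Ly6Clo monocytes of the bone marrow made up 3 of the 12 libraries of the series, chosen by the sample labels alone, and each was set against the 9 libraries of the other groups. To describe what sets these cells apart, a gene was called highest in Ly6Clo monocytes when it was higher there than in Ly6Chi monocytes, than in eYFP+ macrophages and than in eYFP- macrophages, and lowest when it was lower than in all 3 groups. Genes that lay between the other groups were left aside. RNA came from female C57BL/6J mice, 8 weeks old per the study's methods, with the genotype Rank cre/+;R26.eYFP fl/+, which is shared by all 4 groups of 3 libraries. In these mice Cre made from the Rank locus turns on the yellow fluorescent protein eYFP, so that eYFP+ macrophages stand for cells of embryonic origin and eYFP- macrophages for those made by adult stem cells. Both monocyte groups are adult-derived and were sorted as CD11b+ cells with low Gr1 and separated by their surface Ly6C, whereas macrophages were sorted as F4/80+ CD206+ VCAM1+ cells. The labels do not say how many mice gave cells to a library, and a sort by graded surface levels can hold neighbouring cell types.

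Ly6Clo monocytes, also called nonclassical or patrolling monocytes, descend from Ly6Chi (classical) monocytes and crawl along the inner wall of blood vessels, where they take up debris and sense nucleic acids. Their formation and survival depend on the nuclear receptor Nr4a1. They carry little Ly6C and Ccr2, the chemokine receptor that lets classical monocytes leave the bone marrow, and much of the Fc receptor Fcgr4.

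Total counts ran from 26390927 to 48618187 per library, with 38730531, 26390927 and 33508932 in Ly6Clo replicates 1, 2 and 3. Ly6Clo replicate 2 stood apart from the others. It held counts for 16434 genes against 24769 and 22254 in replicates 1 and 3, and across genes its variance-stabilised values correlated with theirs at r = 0.898 and 0.902, while replicates 1 and 3 correlated at 0.977. Its counts also depended on the base composition of the gene. In the bin of genes with the lowest GC content among 10 bins (median 39.3%) its median log2 ratio to the other 2 Ly6Clo libraries was 0.62, and in the bin with the highest (median 58.8%) it was -1.11. Calls among the named and listed genes that are lost or gained without this library are therefore given. Ly6Clo replicate 3 held eosinophil transcripts, with 9054 normalized counts of Prg2 against 12.7 and 0 in replicates 1 and 2. Summed over 8 genes, the eosinophil list stood at 520, 639 and 12337 in the Ly6Clo libraries, at 143 to 203 in Ly6Chi monocytes and at 36862 to 83160 in macrophages, so that each macrophage library lay above replicate 3. No gene of the eosinophil list was highest or lowest in Ly6Clo monocytes on all libraries, while Ear1 was highest without replicate 2. The labels do not state that replicates came from separate mice, so p-values measure the spread between these libraries, which may in part be technical. In bulk RNA, fewer cells of a kind and less RNA per cell cannot be told apart.

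**Figure D1:**
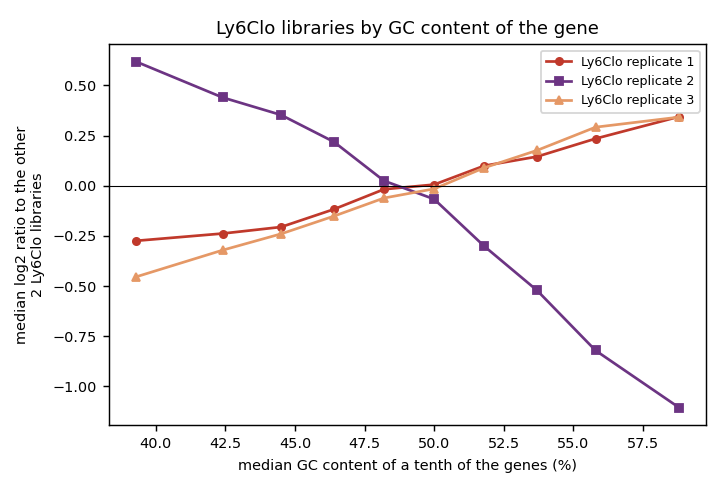
Median log2 ratio of each Ly6Clo library to the mean of the other 2 (vertical axis) in 10 bins of equal gene number ordered by GC content (horizontal axis, median GC of the bin in percent). Replicate 2 runs from 0.62 at a GC content of 39.3% to -1.11 at 58.8%, and replicates 1 and 3 rise together in the opposite direction. Their references contain replicate 2, so their rise is not a separate measure.

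Genes of the surface proteins used for sorting came first, to see whether the libraries match their label. Ly6c2 transcripts were counted at 1240, 581 and 952 in the Ly6Clo libraries (normalized counts, that is, raw counts after division by a size factor per library) and at 118762, 101457 and 99157 in the Ly6Chi libraries. Its near-identical copy Ly6c1 was at 39.9, 28.1 and 26.4 in Ly6Clo and at 2133, 1891 and 2045 in Ly6Chi monocytes. Both genes thus separated the monocyte groups without overlap, although only unambiguously aligned pairs were counted, so that either level is uncertain. Ccr2 was 1.92 ± 0.42 (SE) lower on the log2 scale in Ly6Clo than in Ly6Chi monocytes (DESeq2 adjusted p = 0.000236) and higher than in eYFP+ and eYFP- macrophages, by 6.75 ± 0.43 and 4.95 ± 0.42. Itgam, which encodes CD11b, was at 4549, 2287 and 4910 in Ly6Clo monocytes, at 7580 to 9971 in Ly6Chi monocytes and at no more than 200 in any macrophage library. Of the macrophage sorting markers, Vcam1 reached 2125 to 6516 in Ly6Clo monocytes against at least 537841 in each macrophage library, and Mrc1, which encodes CD206, 1929 to 4918 against at least 38647. Adgre1, which encodes F4/80, was at 29004 to 38367 in Ly6Clo monocytes, above the Ly6Chi libraries (15577 to 18584) and below the macrophage libraries (66789 to 139025). Ly6c2, Ly6c1, Itgam, Vcam1, Mrc1 and Adgre1 lay on the side of the gate by which the cells had been sorted, while Ccr2 was not used in the sort. Genes detected as Gr1, such as Ly6g, were left out of this check, and Ly6g was called highest in Ly6Clo monocytes, as given below.

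Of 20 genes listed as markers of Ly6Clo monocytes, 13 were highest there, in a table in which 295 of 20749 tested genes (1.42%) were. Nr4a1 was at 36980, 20654 and 37674 in the Ly6Clo libraries, at 4133 to 7462 in Ly6Chi monocytes and at 853 to 1486 in the macrophages. Its log2 fold change was 2.55 ± 0.38 (SE) over Ly6Chi monocytes, 4.75 ± 0.38 over eYFP+ and 4.80 ± 0.38 over eYFP- macrophages (largest of the 3 DESeq2 adjusted p = 2.03e-09). Ace, which encodes angiotensin-converting enzyme, was at 17345, 5218 and 12342 in Ly6Clo monocytes against 2193 to 2859 in Ly6Chi monocytes and at most 168 in macrophages. Every Ly6Clo library lay above every other library for both genes. Fcgr4 was 2.18 ± 0.34 higher than in eYFP+ macrophages, the group nearest to it, and the fatty acid and lipoprotein receptor Cd36 was 2.60 ± 0.41 higher than in the same group. Cd9, a tetraspanin of the cell surface, was 2.74 ± 0.34 higher than in eYFP- macrophages. The remaining members of the 13 were Eno3, Cd300e, Pglyrp1, Ceacam1, Itgal, Ear2, Adgre4 and Cd274, with smallest log2 fold changes from 0.84 for Adgre4 to 5.18 for Eno3. With edgeR 9 members were called. Without Ly6Clo replicate 2 the count was 11, since Adgre4, Cd300e, Ceacam1 and Itgal were lost and Itgax and Pou2f2 were gained. The median log2 fold change of the 20 members was 2.66 over Ly6Chi monocytes, 2.85 over eYFP+ and 2.85 over eYFP- macrophages, against -0.01, -0.08 and -0.05 over all tested genes.

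Several well-known markers were not highest in these cells. Cx3cr1, the fractalkine receptor, was at 31005, 6815 and 24750 in Ly6Clo and at 22162, 17128 and 16795 in Ly6Chi monocytes, so that the groups overlapped, and the difference was 0.16 ± 0.52 on the log2 scale (DESeq2 adjusted p = 0.913). Spn, which encodes CD43, was at 3155, 1951 and 3135 against 1146, 1354 and 830, without overlap, but at 1.31 ± 0.68 it did not pass (DESeq2 adjusted p = 0.252). Treml4 was 3.94 ± 0.42 above Ly6Chi monocytes, yet macrophages carried it too, with 19528 to 40476 normalized counts against 26720, 65740 and 33066 in Ly6Clo monocytes, and the difference from eYFP+ macrophages was 0.63 ± 0.42 (DESeq2 adjusted p = 0.279). In Cx3cr1 and Spn replicate 2 was the lowest of the Ly6Clo libraries. In Treml4 it was the highest.

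The 295 genes highest in Ly6Clo monocytes and the 314 lowest (1.51% of those tested) were drawn from wider differences with each group. Against Ly6Chi monocytes 1071 genes (4.97%) were higher and 789 (3.66%) lower. Against eYFP+ macrophages 2538 (12.2%) were higher and 3266 (15.7%) lower, and against eYFP- macrophages 2336 (10.8%) and 3329 (15.4%). All contrasts share the Ly6Clo libraries and are not independent. Of the highest genes, 284 had every Ly6Clo library above the 9 others, as did 761 of all tested genes (3.67%). Of the lowest, 241 had every Ly6Clo library below, as did 710 of all tested genes (3.42%). Ly6Chi monocytes were the nearest group for 174 of the highest and 205 of the lowest genes. The smallest of the 3 log2 fold changes had a median of 1.90 among the highest and -2.84 among the lowest. Replicate 2 was the highest of the 3 Ly6Clo libraries in 191 of the 295 highest genes and the lowest in 157 of the 314 lowest. Neither these counts nor those of the nearest group were taken over all tested genes, so they only describe the called genes. Without Ly6Clo replicate 2, 269 genes were highest and 315 lowest, of which 199 and 239 were shared with the calls on all libraries. With edgeR 147 genes (0.766%) were highest and 125 (0.651%) lowest. Many of the lowest genes were scarce, since 195 had a mean under 50 normalized counts in Ly6Clo monocytes and 87 had such a mean in every group.

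**Figure D2:**
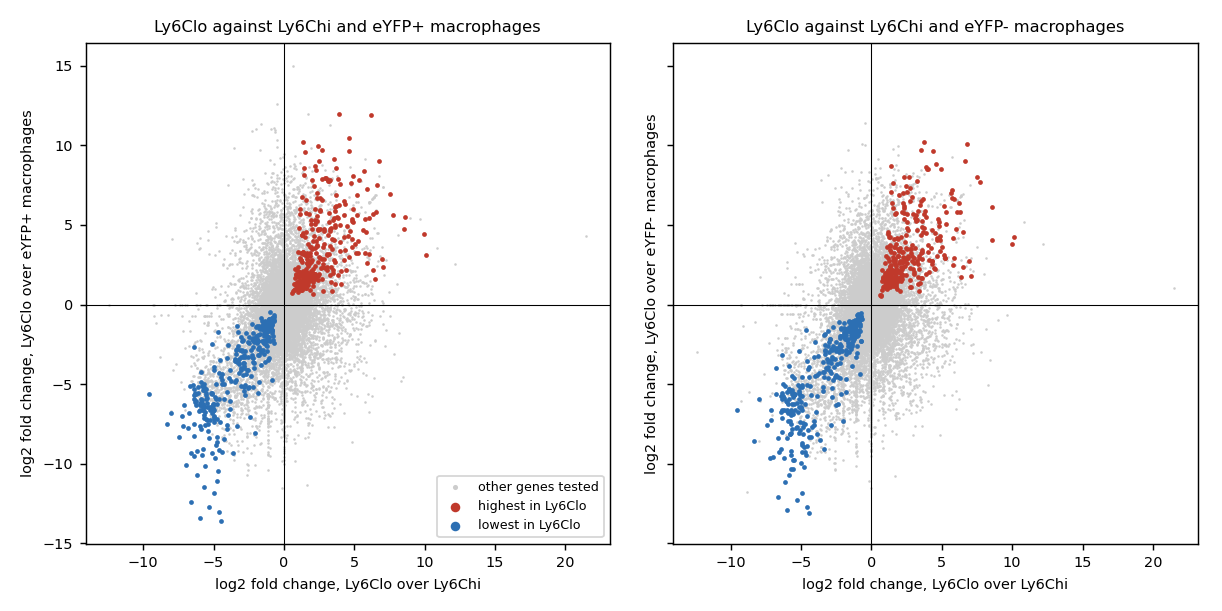
Log2 fold change of each of 20749 tested genes in Ly6Clo over Ly6Chi monocytes (horizontal axis) and over eYFP+ (left) or eYFP- macrophages (right, vertical axis), with the 295 highest genes in red and the 314 lowest in blue. Both axes use the same Ly6Clo libraries, and fitted values of genes with no count in a group are not bounded by the data.

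Among the 20 genes named by rule as highest, several encode enzymes or transporters. Scnn1g, a subunit of the epithelial sodium channel, was at 132, 261 and 102 in the Ly6Clo libraries and at no more than 3.18 in any of the 9 others, most of which had no count. Ctsk, which encodes the collagen-degrading protease cathepsin K, was at 2379, 2291 and 4330 against 7.29 to 82.2 in the others, and its smallest log2 fold change was 5.64 ± 0.47 (SE), over eYFP+ macrophages (DESeq2 adjusted p = 7.97e-31). Atp6v0d2, a subunit of the proton pump of acidic compartments, was at 842, 1773 and 1556 against 0 to 56.3. The naming rule required every Ly6Clo library to lie above the 9 others, so the lack of overlap in these genes was fixed by selection. Atp6v0d2 passed by little, at 5.48 ± 2.11 over eYFP+ macrophages (DESeq2 adjusted p = 0.0364), and did not pass without Ly6Clo replicate 2 (5.32, DESeq2 adjusted p = 0.124). Eno3, the muscle form of the glycolytic enzyme enolase, was at 27716, 18492 and 25614 against 446 to 822 in Ly6Chi monocytes and 150 to 339 in macrophages, a smallest log2 fold change of 5.18 ± 0.33 (largest DESeq2 adjusted p = 1.06e-51). Tgm3, a transglutaminase, was at 136, 100 and 95.5 against at most 8.50 elsewhere. G0s2, an inhibitor of the triglyceride lipase Pnpla2, was at 3353, 3268 and 2890, with 242 to 287 in Ly6Chi monocytes and at most 111 in macrophages.

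Dual specificity phosphatases, several of which switch off mitogen-activated protein kinases, were also among the named genes. Dusp16, which acts on the kinases JNK and p38, was at 14251, 11427 and 12980 in Ly6Clo monocytes and at 163 to 471 in all other libraries. The smallest log2 fold change was 5.46 ± 0.40 (SE), over eYFP+ macrophages (DESeq2 adjusted p = 1.35e-39), a 44.0-fold difference. Dusp5, which acts on ERK in the nucleus, was at 1321, 1870 and 889 against 2.06 to 90.4, with 4.83 ± 0.87 over Ly6Chi monocytes. For both, Ly6Clo libraries above all others were a condition of the naming rule. Dusp1 was 1.76 ± 0.37 higher than in eYFP+ macrophages, and Dusp18 was lowest, at 11.9, 0 and 0 against 46.3 to 194. Of the 17 members of the family that were tested, these 3 were highest and this 1 lowest, against 1.42% and 1.51% of all genes, and Dusp7 was lowest as well without Ly6Clo replicate 2. The list was written after the values had been seen, so its count is a description.

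The remaining named genes have varied roles. Ikzf3, a zinc finger factor known from lymphocytes, was at 4198, 740 and 1924 against 38.1 to 189, a smallest log2 fold change of 4.05 ± 0.62 over eYFP- macrophages. Replicate 2 was the lowest of its Ly6Clo libraries but still above all others, as the naming rule required. Setbp1, which binds the SET protein, was at 134, 314 and 150 against at most 6.07. Tgfbr3, a co-receptor for TGF-beta, was at 5497, 2602 and 2389, with 121 to 409 in Ly6Chi monocytes and 11.4 to 303 in macrophages. Tmem121b, a membrane protein, was at 903, 324 and 701 against at most 17.3. Dnah12, a dynein heavy chain of motile cilia, was at 1962, 2504 and 2334 against 54.7 to 111 in Ly6Chi monocytes and 2.74 to 10.4 in macrophages. Rpl3l, the muscle form of ribosomal protein Rpl3, was at 174, 506 and 373 against 23.1 to 31.6 in Ly6Chi monocytes and at most 3.09 in macrophages.

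**Figure D3:**
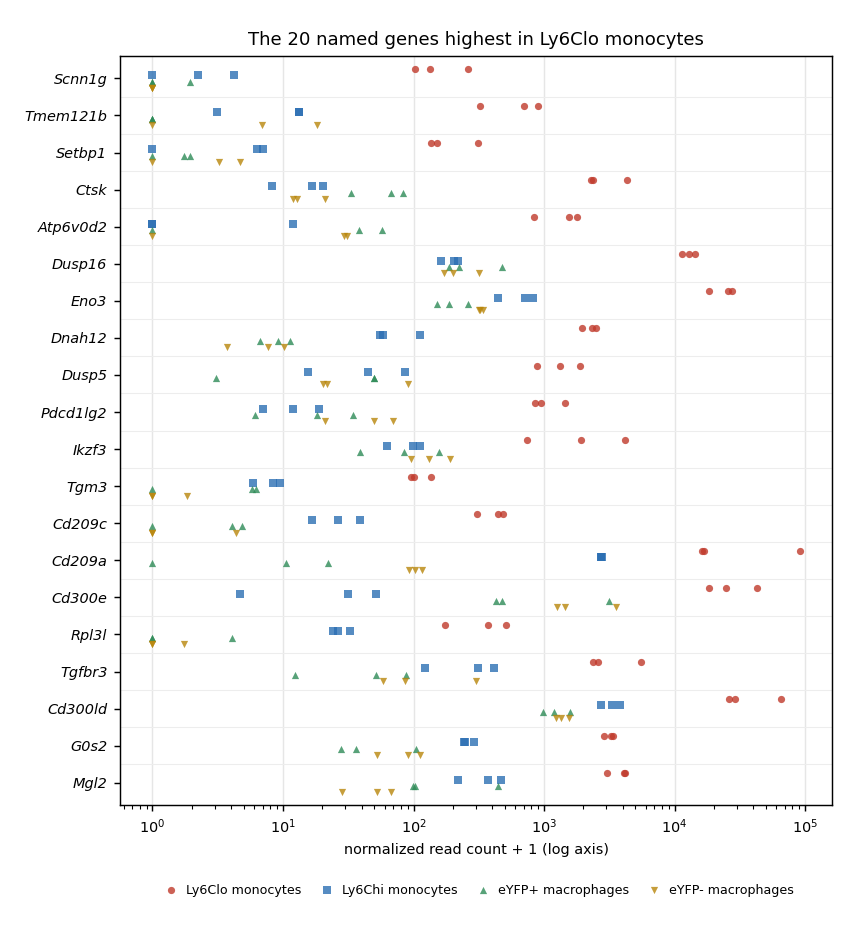
Normalized read count plus 1 (log axis) of the 20 genes named by rule as highest in Ly6Clo monocytes, 1 point per library and 3 libraries per group. All Ly6Clo points (red circles) lie to the right of all others, which the naming rule required. They run from 95.5 for the lowest Tgm3 library to 91254 for Cd209a in replicate 2.

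Promoter sequences of the first named genes held by the RefSeq table (GRCm38.p6) are shown because these genes had the largest differences. Of the 20 named genes 16 were in the table. The 150 bases before the annotated start of Scnn1g lie at chr7:121734329-121734478 (plus strand), those of Tmem121b at chr6:120493947-120494096 (minus strand) and those of Ctsk at chr3:95499060-95499209 (plus strand). Capitals mark the GC box (GGGCGG on either strand). 
Scnn1g: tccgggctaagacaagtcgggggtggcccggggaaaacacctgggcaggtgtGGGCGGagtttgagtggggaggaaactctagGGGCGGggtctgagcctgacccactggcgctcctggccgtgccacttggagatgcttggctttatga
Tmem121b: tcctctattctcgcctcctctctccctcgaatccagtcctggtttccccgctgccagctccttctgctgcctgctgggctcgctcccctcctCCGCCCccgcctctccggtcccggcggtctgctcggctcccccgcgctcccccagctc
Ctsk: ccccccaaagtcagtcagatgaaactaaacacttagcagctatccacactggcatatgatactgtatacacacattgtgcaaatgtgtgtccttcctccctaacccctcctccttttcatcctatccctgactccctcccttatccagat
Over the 250 bases before the start, 5 of the 16 genes held a GC box, as did 35.4% of the 27025 genes of the table, 50% of 198 genes highest in Ly6Clo monocytes and 52.7% of 207 lowest. The Nr4a response element (AAAGGTCA on either strand) was in none of the 16 and in 1.55% of all genes. It was in 2 of 198 genes highest in Ly6Clo monocytes that the table holds. These are matches of letters in a short window only.

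Surface receptors of myeloid cells were examined by list as well. Of 43 activating and inhibitory receptors listed, 9 were highest and 4 lowest, against 1.42% and 1.51% of all tested genes. The counts were 9 and 4 with edgeR and 8 and 4 without Ly6Clo replicate 2, where Cd300e was lost. Pdcd1lg2, which encodes the PD-1 ligand PD-L2, was at 940, 1435 and 852 in Ly6Clo monocytes against 5.15 to 68.4 elsewhere, with a smallest log2 fold change of 4.55 ± 0.61 (SE) over eYFP- macrophages (DESeq2 adjusted p = 3.32e-12). Its neighbour Cd274, which encodes PD-L1, was at 3671, 2558 and 4351 against 318 to 396 in Ly6Chi monocytes and 873 to 1820 in macrophages. Cd274 did not overlap with another group, and for Pdcd1lg2 the naming rule required this. Trem1, which amplifies inflammatory signals, was at 1820, 1720 and 2801, with 358 to 530 in Ly6Chi monocytes and at most 42.7 in macrophages. Lilra5, an activating receptor of the Lilr family, was at 7324, 14462 and 11427, against 81.4 to 200 in Ly6Chi monocytes and 1969 to 4533 in macrophages. Clec4a1 and Clec4a3, lectins of the same cluster, were higher than in the nearest group by 1.01 ± 0.28 and 1.33 ± 0.29.

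The receptors that were lowest carry related names. Fcgr1, the high-affinity receptor for IgG, was at 2718, 1999 and 2241 in Ly6Clo monocytes, at 5992 to 8095 in Ly6Chi monocytes and at 13038 to 23236 in macrophages. Its log2 fold change over Ly6Chi monocytes was -1.65 ± 0.26 (SE, DESeq2 adjusted p = 3.69e-08), whereas Fcgr4, which binds IgG in complexes, was highest. Clec4a2, an inhibitory lectin, was at 2296, 2858 and 1984 against at least 5595 in each other library, opposite in direction to Clec4a1 and Clec4a3. Pira2, an activating receptor paired with Pirb, was at 259, 368 and 264 against at least 1404, with -2.28 ± 0.25 over Ly6Chi monocytes. Cd300lf was at 737, 985 and 611 against at least 1575. In all of these the Ly6Clo libraries lay below all others, which for Pira2 the naming rule required. Pira, Clec4a and Cd300 genes have close copies, so counting may split reads between them.

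Cd300 and Cd209 receptors gave further large differences. Cd300 proteins are paired receptors that bind membrane lipids. Cd300e was at 18353, 42866 and 24804 in Ly6Clo monocytes, at 3.64 to 50.9 in Ly6Chi monocytes and at 424 to 3544 in macrophages. Its smallest log2 fold change was 3.78 ± 0.83 (SE), over eYFP- macrophages (DESeq2 adjusted p = 5.49e-05), and without Ly6Clo replicate 2 it was 3.42 with no DESeq2 adjusted p, since DESeq2 gave none. Cd300ld was at 26208, 65487 and 28858 against 2707 to 3797 in Ly6Chi monocytes and 974 to 1570 in macrophages. Of 11 family members tested, 3 were highest (these and Cd300ld3) and Cd300lf was lowest, against 1.42% and 1.51% of all genes. Cd209 lectins bind mannose and fucose, and Cd209a is the mouse relative of human DC-SIGN. Cd209a was at 16230, 91254 and 16954 in Ly6Clo monocytes, at 2727 to 2803 in Ly6Chi monocytes, at no more than 21.0 in eYFP+ and at 92.1 to 116 in eYFP- macrophages. The log2 fold change over Ly6Chi monocytes was 3.91 ± 0.76 (DESeq2 adjusted p = 1.64e-05) and 2.59 without replicate 2, which alone was far above the other 2. Cd209c was at 443, 484 and 305 against at most 38.2, and Cd209b and Cd209d were highest as well, so that 4 of 7 family members were (3 with edgeR, without Cd209d), against 1.42% of all genes (0.766% with edgeR). Cd209f and Cd209g were instead lower in Ly6Clo monocytes than in either macrophage group, with log2 fold changes from -6.45 to -6.04. Mgl2, a lectin for galactose-type sugars that is known from dendritic cells and macrophages, was at 4166, 4128 and 3047 against at most 469. Both family lists were written after the values had been seen.

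Several genes of antigen presentation by MHC class II were highest in Ly6Clo monocytes as well, 6 of the 11 tested. H2-Ab1 was at 208413, 637010 and 209705 in Ly6Clo monocytes, at 20222 to 40574 in Ly6Chi monocytes, at 57113 to 104935 in eYFP+ and at 89526 to 147010 in eYFP- macrophages. Its log2 fold change over eYFP- macrophages, the nearest group, was 1.67 ± 0.49 (SE, DESeq2 adjusted p = 0.00469), and 0.97 without Ly6Clo replicate 2 (DESeq2 adjusted p = 0.0363). H2-Aa was at 150696, 121967 and 135870 against at most 85880, and H2-Eb1 at 152331, 114634 and 124850 against at most 66780. For these genes the groups did not overlap. H2-Oa and H2-Ob, which form a regulator of peptide loading, were 2.21 ± 0.53 and 2.53 ± 0.72 higher than in eYFP- macrophages. H2-DMb2 was 1.80 ± 0.44 higher than in Ly6Chi monocytes. Against these 6 of 11 stood 1.42% of all genes. H2-DMa, at 12146, 18098 and 13163, passed against no group (log2 fold changes from -0.16 to -0.08, each with an SE of 0.28), and Ciita, the activator of these genes, was at 5398, 725 and 4497 with differences that did not pass. Cd74, the invariant chain, passed against Ly6Chi monocytes and eYFP+ macrophages but not against eYFP- macrophages (1.07 ± 0.50). This list too was written after the values had been seen, and some class II genes are related in sequence.

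Class II genes and Cd209a are also markers of dendritic cells. The list of such markers holds Cd209a, H2-Ab1, H2-Aa and H2-Eb1 themselves, so its sum counts the same genes again and is no separate measure. Summed over its 16 genes it ran from 716988 to 1408910 in Ly6Clo monocytes, 78775.2 to 168972 in Ly6Chi monocytes, 210603 to 297402 in eYFP+ and 248091 to 531505 in eYFP- macrophages. Of 15 members tested, 4 were highest (Cd209a, H2-Ab1, H2-Aa and H2-Eb1) and Ccr9 was lowest. The call of Ccr9 was lost with edgeR and without Ly6Clo replicate 2 (DESeq2 adjusted p = 0.0764 without it). Over all tested genes 1.42% were highest and 1.51% lowest. Against Ly6Chi monocytes 10 members were higher and 1 lower (4.97% and 3.66% of all genes), against eYFP+ macrophages 6 and 1 (12.2% and 15.7%), and against eYFP- macrophages 4 and 1 (10.8% and 15.4%). The medians were 3.01, 1.49 and 1.10 on the log2 scale. Among members that are more specific for dendritic cells, Flt3 was at 2997, 565 and 3253 in Ly6Clo and at 1424 to 2306 in Ly6Chi monocytes, Zbtb46 at 952, 173 and 680 against 57.3 to 94.7, and Xcr1 at 130, 0 and 90.4 against at most 4.86, and none of these was highest. No member was at 0 in all 3 Ly6Clo libraries. The part of such cells in the class II difference was not tested.

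The promoters of H2-Aa and H2-Eb1 are shown because both genes were highest and hold the Y box of class II genes (CTGATTGG on either strand), marked in capitals in the 100 bases before the start. The window of H2-Aa lies at chr17:34287824-34287923 (minus strand) and that of H2-Eb1 at chr17:34305767-34305866 (plus strand) (GRCm38.p6, RefSeq). 
H2-Aa: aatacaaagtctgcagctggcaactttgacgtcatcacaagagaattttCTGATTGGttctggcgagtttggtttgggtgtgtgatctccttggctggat
H2-Eb1: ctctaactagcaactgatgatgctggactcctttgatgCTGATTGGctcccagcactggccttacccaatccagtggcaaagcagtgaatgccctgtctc
Within 250 bases before the start, 4 of the 8 class II genes in the table held this motif, among them H2-Eb2, which was not highest, and 3 of the 5 highest class II genes (H2-Aa, H2-Eb1 and H2-Oa), against 4.43% of all genes.

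**Figure D4:**
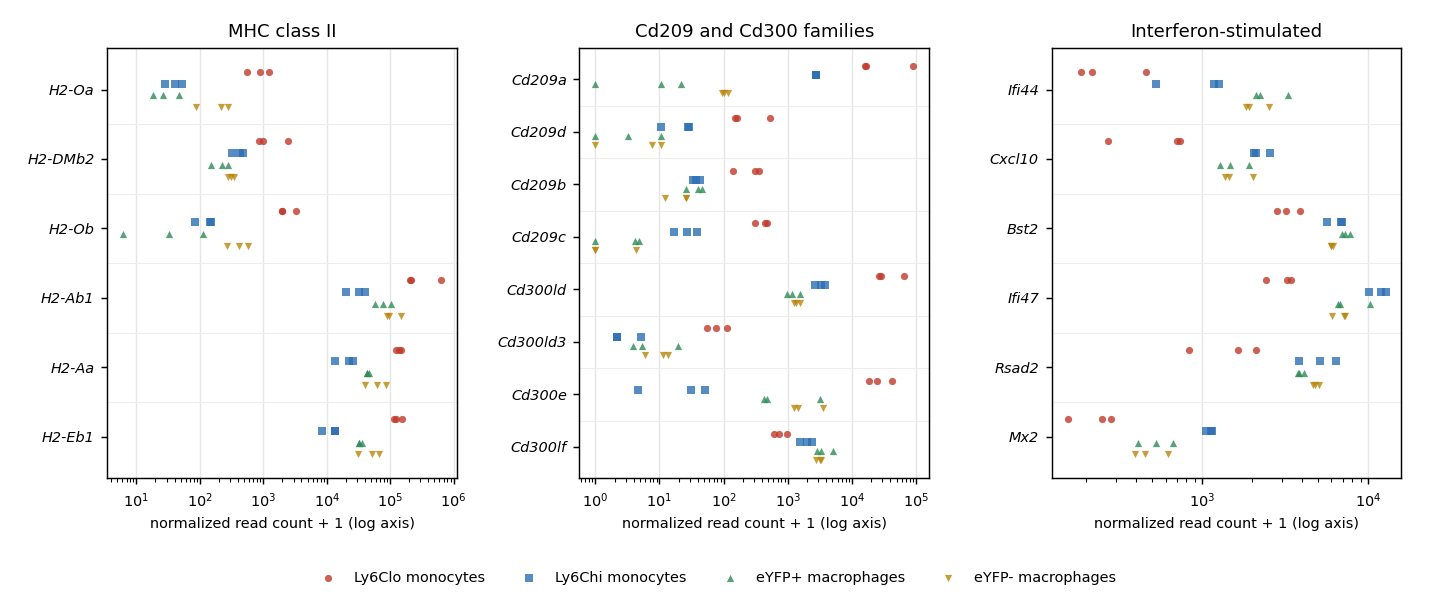
Normalized read count plus 1 (log axes) of the members of 4 families that were highest or lowest in Ly6Clo monocytes, 1 point per library and 3 libraries per group. Ly6Clo points (red circles) lie to the right in MHC class II, Cd209 and Cd300 genes except Cd300lf, and to the left in interferon-stimulated genes.

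Genes for survival and for transcription factors were examined by list. Of 16 tested regulators of the Bcl2 family, 3 were highest, against 1.42% of all genes. Bcl2 itself, which blocks apoptosis, was at 1829, 1731 and 1453 in Ly6Clo monocytes, at 85.0 to 185 in Ly6Chi monocytes, at 5.15 to 65.9 in eYFP+ and at 212 to 250 in eYFP- macrophages. Its smallest log2 fold change was 2.85 ± 0.59 (SE, DESeq2 adjusted p = 1.67e-05) and no libraries overlapped. Bcl2a1d, another protective member, was at 5068, 6865 and 5240 against at most 941. Its near-identical copies Bcl2a1a and Bcl2a1b did not pass against eYFP+ macrophages (0.63 ± 0.31 and 0.31 ± 0.27), and reads may be split between the copies. Pmaip1, which promotes apoptosis, was at 6355, 21246 and 8696 against at most 2449.

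Of 48 transcription factors of monocytes and macrophages, 5 were highest and 1 lowest, against 1.42% and 1.51% of all genes, and without Ly6Clo replicate 2 Nr4a2 was lost and Pou2f2 gained. The nuclear receptor Nr4a2 was at 163, 293 and 91.4 against at most 40.3, but passed neither with edgeR nor without Ly6Clo replicate 2 (DESeq2 adjusted p = 0.190 without it). Klf4, a factor needed for monocyte formation, was at 1072, 1882 and 937, with 429 to 598 in Ly6Chi monocytes and 58.5 to 72.0 in macrophages. Id3, an inhibitor of basic helix-loop-helix factors, was at 524, 675 and 1038 against at most 254. Bhlhe40 was higher by 0.86 ± 0.32 than in eYFP- macrophages. Tfec, a factor of the Mitf family, was the lowest, at 79.8, 126 and 106 against 583 to 603 in Ly6Chi monocytes and 2033 to 4025 in macrophages (-2.52 ± 0.26 over Ly6Chi monocytes, DESeq2 adjusted p = 3.13e-19). Its 3 Ly6Clo libraries lay far below all others, and the naming rule required them to lie below. Of 20 immediate early genes only Nr4a1, Nr4a2 and Dusp1 were highest, while Fos, Jun, Egr1 and the other members were not.

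Of 26 adhesion molecules 4 were highest (Cd9, Itgal, Ceacam1 and Cd47), of 22 receptors for chemoattractants 1 was highest, and of 31 inflammatory cytokines and chemokines 2 were highest (Il1b and Ccl5) and 2 lowest (Cxcl10 and Il15), against 1.42% and 1.51% of all tested genes. Il15 was not called with edgeR. Il1b, which encodes the cytokine interleukin-1 beta, was at 4499, 3944 and 4604 against 514 to 1105 in Ly6Chi monocytes and 244 to 800 in macrophages, with 2.46 ± 0.41 over Ly6Chi monocytes (DESeq2 adjusted p = 2.51e-07). The chemokine Ccl5 was 1.12 ± 0.32 higher than in eYFP- macrophages. C5ar1, the receptor of complement fragment C5a, was at 7160, 6908 and 8854 against 2417 to 3821 in Ly6Chi monocytes and 662 to 1066 in macrophages. All 3 were without overlap. Itgal, Ceacam1 and Cd47 were highest by 0.60 to 1.45, but passed neither with edgeR nor without Ly6Clo replicate 2. Without that library the adhesion molecules Itgax and Itgb1 and the cytokine Tnf were gained as highest. Of 25 tested genes of the Notch pathway 1 was highest and 2 were lowest, against 1.42% and 1.51% of all tested genes. With edgeR 1 was highest and none was lowest (0.766% and 0.651% of all genes). Jag1, a ligand of Notch receptors, was at 339, 283 and 238 against at most 55.9. Dll1, another Notch ligand, had no count in any Ly6Clo library, which allows up to 3 counts in each, and was at 24.4, 0 and 17.0 in Ly6Chi monocytes and at 195 to 588 in macrophages.

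Markers of Ly6Chi monocytes and genes of the cell cycle came next. Of 16 tested Ly6Chi markers none was highest or lowest on all libraries, although Mgst1 was lowest without Ly6Clo replicate 2, with median log2 fold changes of -2.29 over Ly6Chi monocytes, 4.80 over eYFP+ and 3.66 over eYFP- macrophages. Of the 16, 10 were lower than in Ly6Chi monocytes (3.66% of all genes), 14 were higher and 1 lower than in eYFP+ macrophages (12.2% and 15.7%), and 12 were higher than in eYFP- macrophages (10.8%). Of 26 proliferation genes none was highest or lowest, and 22 were lower than in eYFP- macrophages, as were 15.4% of all genes. Of 24 genes of lipid handling Cd36 alone was highest on all libraries (1.42% of all genes were), and Pltp, the phospholipid transfer protein, was gained without Ly6Clo replicate 2.

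Osteoclast genes were added because Ctsk and Atp6v0d2 were among the named genes. Of 15 tested, 4 were highest, these 2 included, against 1.42% of all genes. With edgeR the count was 3 (0.766% of all genes), and without Ly6Clo replicate 2 it was 2, Ctsk and Ocstamp. Mmp9, a protease that cleaves gelatin, was at 8069, 990 and 5330 against at most 194, but did not pass with edgeR (largest edgeR adjusted p = 0.0876), and DESeq2 gave no adjusted p without Ly6Clo replicate 2. Ocstamp, a membrane protein of cell fusion, was 1.83 ± 0.45 higher than in Ly6Chi monocytes. Acp5, which encodes tartrate-resistant acid phosphatase, was 3.94 ± 0.28 higher than in Ly6Chi monocytes but did not pass against macrophages (-0.36 ± 0.28 and -0.46 ± 0.28). Tnfrsf11a, which encodes Rank, was at 66.2, 133 and 59.9, below all macrophage libraries. Calcr and Oscar had no count in any Ly6Clo library.

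Some of the highest genes, which were 1.42% of all tested genes, belong to lists of other cells. Klrd1, a lectin-like receptor of natural killer cells, was at 1338, 832 and 1388 against 6.18 to 191, a smallest log2 fold change of 3.38 ± 0.55 over eYFP- macrophages (DESeq2 adjusted p = 2.04e-08). It was the only one of 12 natural killer markers to be highest, while Ncr1 was at 60.3, 0 and 47.7, Eomes at 0.849, 0 and 0, and Nkg7 was lower than in Ly6Chi monocytes. Against Ly6Chi monocytes 5 of the 12 were higher (Klrd1, Klre1, Klrk1, Ncr1 and Il2rb) and Nkg7 alone was lower (4.97% and 3.66% of all genes), and the median over the list was 3.34 on the log2 scale. Against eYFP+ macrophages 3 were higher and none was lower (12.2% and 15.7% of all genes). Against eYFP- macrophages 1 was higher and 5 were lower (10.8% and 15.4% of all genes). The summed list ran from 4191.37 to 6065.19 in Ly6Clo monocytes, 1371.18 to 2212.25 in Ly6Chi monocytes, 2821.55 to 4733.81 in eYFP+ and 4870.83 to 6714.86 in eYFP- macrophages. Of the 12 neutrophil markers only Mmp9 and Ly6g were highest, and neither was called with edgeR or without Ly6Clo replicate 2. Ly6g was at 791, 407 and 414 against at most 81.4. The sum of that list was 89007.5 to 140846 in Ly6Clo and 137013 to 203698 in Ly6Chi monocytes, against at most 41392 in any macrophage library, and none of its members was at 0 in all 3 Ly6Clo libraries. Vwf was highest among 9 tested genes of megakaryocytes and platelets, at 540, 292 and 664 against at most 94.5. No gene of the erythroid, eosinophil, basophil, T cell, B cell, progenitor, stromal or bone marrow macrophage lists was highest or lowest on all libraries. Without Ly6Clo replicate 2, Igkc of the B cell list was lowest, besides Ear1 of the eosinophil list. The part of other cells in these differences was not tested.

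Turning to the lowest genes, interferon-stimulated genes were the list with the most members called. Of 24 tested, 6 were lowest and none was highest, with edgeR and without Ly6Clo replicate 2 alike, while 1.51% of all tested genes were lowest (0.651% with edgeR). Rsad2, which encodes the antiviral enzyme viperin, was at 2090, 831 and 1638 in Ly6Clo monocytes against 3751 to 6374 in the other libraries, and its smallest log2 fold change was -1.35 ± 0.36 (SE, DESeq2 adjusted p = 0.00101). Ifi47, a GTPase induced by interferon, was at 3226, 2405 and 3411 against at least 6017. Bst2, which tethers virus particles to the cell, was at 3172, 2815 and 3866 against at least 5633. The Ly6Clo libraries lay below all others in these genes. Ifi44, Cxcl10 and Mx2 completed the group, with smallest log2 fold changes of -1.78, -1.44 and -1.10. The median over the list was -1.70 over Ly6Chi monocytes, -0.89 over eYFP+ and -0.57 over eYFP- macrophages. Against Ly6Chi monocytes 18 members were lower, as were 3.66% of all genes, against eYFP+ macrophages 9 (15.7% of all genes) and against eYFP- macrophages 7 (15.4%). Other members, such as Oasl2 (0.55 ± 0.31 over eYFP+ macrophages), were not below macrophages. Their summed counts ran from 59249.1 to 67681.6 in Ly6Clo monocytes and were 86116.3 or more in each other library.

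Promoter windows of Rsad2 and Bst2 are shown because both are lowest and hold the core of the interferon-stimulated response element (GAAA followed after 2 bases by another GAAA, on either strand), which is in capitals. The 150 bases before the start lie at chr12:26456453-26456602 (minus strand) and at chr8:71537473-71537622 (minus strand) (GRCm38.p6, RefSeq). The 2 matches of Bst2 overlap. 
Rsad2: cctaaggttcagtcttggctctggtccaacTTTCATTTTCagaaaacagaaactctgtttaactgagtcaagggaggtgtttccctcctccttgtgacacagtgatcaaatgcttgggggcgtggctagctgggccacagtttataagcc
Bst2: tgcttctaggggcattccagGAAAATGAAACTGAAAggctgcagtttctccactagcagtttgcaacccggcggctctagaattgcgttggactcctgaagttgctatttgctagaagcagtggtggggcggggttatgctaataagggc
Of the 18 interferon-stimulated genes that the table holds 9 had the motif in the 250 bases before the start, and 3 of the 5 that were lowest (Rsad2, Bst2 and Cxcl10). It was in 3.46% of all genes and in 10 of 207 genes lowest in Ly6Clo monocytes.

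The 15 genes named by rule as lowest included enzymes of the lysosome and of metal handling. Arsg, a lysosomal sulfatase, was at 22.1, 0 and 48.8 in Ly6Clo monocytes, at 243 to 432 in Ly6Chi monocytes and at 1251 to 2434 in macrophages, with -3.87 ± 0.68 (SE) over Ly6Chi monocytes (DESeq2 adjusted p = 1.19e-06). Arsi, another sulfatase, was at 182, 50.9 and 120 against 232 or more. Steap3, the reductase that prepares iron for export from endosomes, was at 286, 200 and 390 against at least 709. Ctsc, the protease that activates granule serine proteases, was lowest as well, at 20476, 26911 and 21086 against at least 49930. Lamp1, a protein of the lysosomal membrane, was 1.36 ± 0.44 lower than in Ly6Chi monocytes, but not with edgeR. Of 25 lysosomal proteases and hydrolases Ctsk alone was highest (1.42% of all genes), and 18 were lower than in eYFP+ macrophages (15.7% of all genes).

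Other named genes serve signalling and immune recognition. Lgals9, a lectin that binds galactose and a ligand of Havcr2, was at 3332, 1869 and 3235 against 10018 to 15754, with similar differences from all groups (-2.21 ± 0.32, -2.11 ± 0.32 and -2.11 ± 0.32). C1rl, a protease related to complement C1r, was at 168, 110 and 102 against 593 to 769. Gab1, an adaptor of receptor tyrosine kinases, was at 98.5, 17.4 and 33.5 against at least 221. For these 3, Ly6Clo libraries below all others were a condition of the naming rule. Trim30c, of a family of interferon-linked regulators with close copies, was at 67.9, 194 and 12.2 against at least 377, and Man2a2, a mannosidase of the Golgi, at 736, 181 and 332 against at least 873. Rpgrip1l and Spaca9 are linked to cilia, whereas Dnah12, a dynein of motile cilia, was named among the highest. No list of cilia genes was tested. Rpgrip1l, a protein of the ciliary transition zone, was at 5.94, 0 and 3.05 against 15.9 to 106, and Spaca9, a microtubule-associated protein of sperm and cilia, was at 12.7, 71.0 and 43.7 against at least 119. Ak8, an adenylate kinase, and Rusc2, an adaptor of vesicle transport, were lowest with -3.84 ± 0.64 and -3.45 ± 0.73. Their means in Ly6Clo monocytes were low and 1 or more libraries were near 0.

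**Figure D5:**
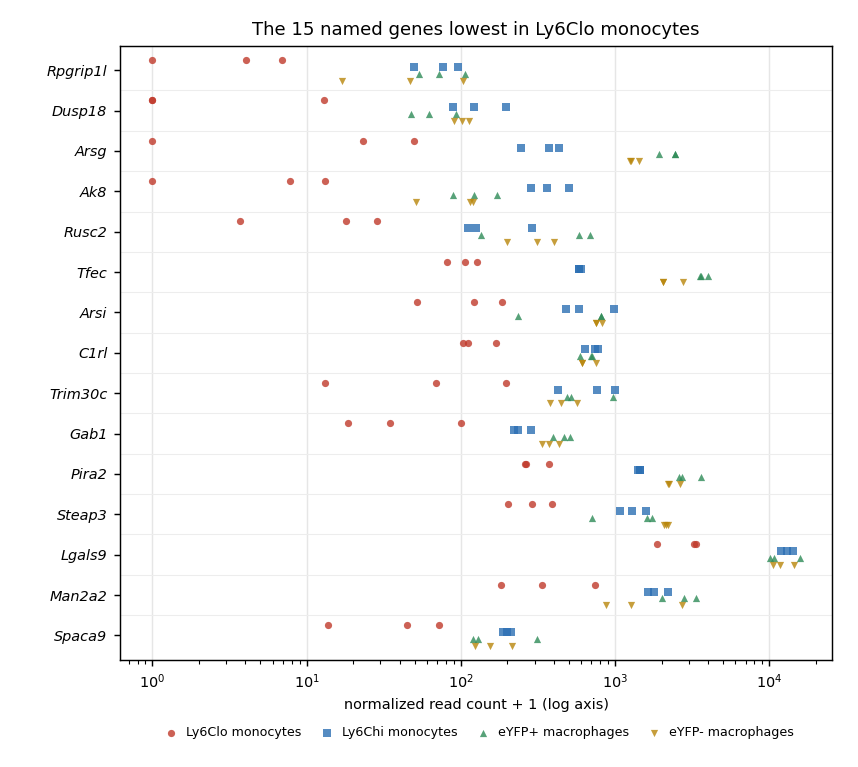
Normalized read count plus 1 (log axis) of the 15 genes named by rule as lowest in Ly6Clo monocytes, 1 point per library and 3 libraries per group. All Ly6Clo points (red circles) lie to the left of all others, which the naming rule required. Lgals9 was at 1869 to 3332 normalized counts in Ly6Clo monocytes against 10018 or more elsewhere.

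Some called genes lie near each other on the chromosome. Of 216 genes highest in Ly6Clo monocytes that could be placed in RefSeq gene order (GRCm38.p6), 70 had another such gene within 5 genes. The runs included Cd209a, Cd209d, Cd209b and Cd209c, the class II genes H2-Ob, H2-Ab1, H2-Aa and H2-Eb1, the pair Cd274 and Pdcd1lg2, the pair Clec4a1 and Clec4a3, and Cd300ld, Cd300ld3 and Cd300e. Of 251 lowest genes 45 had such a neighbour, among them Slc16a6, Arsg, Abca8b and Abca8a. The share over all placed genes was not computed, so these counts are descriptions only. Several of the runs are families of copies, for which only unambiguously aligned read pairs were counted.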

How the data were processed

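RNA of 4 sorted bone marrow populations, with 3 libraries each, was sequenced from amplified cDNA in read pairs. No molecular identifiers are given in the sources used here, so reads are not independent molecules. The authors trimmed and corrected the reads, removed ribosomal RNA, aligned with segemehl to GRCm39 and counted unambiguously aligned pairs per Ensembl gene with featureCounts, with bcl2fastq 2.20.0.422 named in the submitters' processing notes. Strand use in counting is not given, so antisense and overlapping genes are uncertain. The deposited counts were raw, the deposited TPM values were scaled by gene length and by library total, and the deposited variance-stabilised values, on a scale near log2, came from DESeq2. Counts were tested with the Wald test of DESeq2 1.42.0 (R 4.3.3) in 1 fit over 12 libraries, with Benjamini-Hochberg adjusted p-values and a threshold of 0.05. A gene was highest or lowest when it passed in the same direction in all 3 contrasts. DESeq2 gave no adjusted p for some genes, among them Ly6c2 and Itgam.

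The alternatives were the quasi-likelihood test of edgeR 4.0.16, limma 3.58.1 on log2(TPM + 1), TMM scaling, a minimum of 10 counts in 3 libraries, fits of 2 groups, a GC correction, a replicate block, and leaving out each library. Fitting was also run on simulated counts with set changes in the Ly6Clo libraries only. These held no GC dependence of replicate 2, and their outcome is not used here. Named genes passed with DESeq2 and edgeR, had every Ly6Clo library above (or below) the 9 others and a mean of at least 50 normalized counts in Ly6Clo monocytes (or in each other group), and were taken as the first 20 highest and 15 lowest by the smallest log2 fold change. Sorting and subset markers were named in advance of this rule, with up to 6 called members of each list. The genes and lists were chosen with earlier results of these data known. The osteoclast, MHC class II, Cd209, Cd300 and dual specificity phosphatase lists were added after values had been seen. The reference used for GC content, promoters and gene order was GRCm38, not the authors' build, and was joined by gene name or identifier only. No replicate-numbered pairs were used, since the study's methods name none and the labels do not say whether same-numbered libraries share a mouse. Deviations of same-numbered libraries from their group means correlated with those of Ly6Clo at -0.654 to 0.442. With 3 libraries per group this cannot settle whether they are pairs.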

Additional observations from a re-analysis of the deposited data

How the results depend on the processing

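The 295 highest and 314 lowest genes were 147 and 125 with edgeR, and 96 and 78 with edgeR and a replicate block, which was chosen after seeing the data. The lowest genes numbered 130 with limma on log2(TPM + 1) and 92 when each contrast was fitted on its 2 groups. Against Ly6Chi monocytes the called genes were 829 with edgeR, 1219 with limma and 1191 in the fit of 2 groups, and against eYFP+ macrophages 3680 in the fit of 2 groups. When each library was left out in turn, highest genes ran from 202 to 333, lowest genes from 197 (without Ly6Chi replicate 1) to 541 (without Ly6Clo replicate 1), and called genes from 1205 (without Ly6Chi replicate 2) to 2290 against Ly6Chi, from 4595 to 6260 against eYFP+ and from 4298 to 6150 against eYFP- cells. Without Ly6Chi replicate 1 the count against Ly6Chi was 1219. The cause was not tested. The replicate block in DESeq2 gave 246 highest, 389 lowest and 2234 genes against Ly6Chi, of which 47.2% were higher in Ly6Clo monocytes against 57.6% of the 1860 without the block, so that lower genes became the majority. With a minimum of 10 counts beside the block the share was 55%. Only 2 of 9 pairs of libraries correlated best with their own replicate number. Of 100 single-gene results, 99 could be called with the GC correction, 98 without each Ly6Clo replicate and all 100 in the other settings. None of those reversed, while 16 no longer passed with edgeR, 4 with the GC correction, 9 with the block, and from 1 (without eYFP+ replicate 1) to 12 (without Ly6Chi replicate 2) when 1 library was left out, with 11 without Ly6Chi replicate 1 and 8 without Ly6Clo replicate 2. Of the 314 lowest genes, 101 had no count in any Ly6Clo library and 177 had none in Ly6Clo replicate 2.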
